A study of Mus musculus with 3 samples.

Results

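The genes *Hnf4a*, *Foxa1*, *Foxa3*, *Sox7*, *Sox17* and *Nr5a2* encode transcription factors linked to the endoderm lineages of the mouse embryo, and were taken by their symbols from the deposited gene tables. They are 6 of the 17633 genes with at least 1 read in any of the 3 libraries, and each of the 6 had reads in all of them. The RNA came from ICR mouse embryos of embryonic day 7.5 (E7.5), the stage of gastrulation, whose embryonic region was cut off, treated with trypsin and pancreatin and separated with glass needles into endoderm, mesoderm and epiblast. The epiblast as dissected also holds the primitive streak. RNA of many embryos was pooled and sequenced as 1 library per germ layer. The differences between germ layers therefore have no replicate check within these data. The paper reports qPCR in which germ layer markers, among them *Sox17* and *Foxa2* for endoderm, were high or exclusive in their own layer. It also reports good accordance of gene ranks with a separate microarray of the layers. Neither was used here. The tests and intervals given with the differences between germ layers compare the reads of 2 libraries and cover counting error only. In such bulk RNA, fewer cells of a type and less RNA per cell cannot be told apart.

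In the E7.5 embryo the outer endoderm layer holds visceral endoderm, an extra-embryonic epithelium that absorbs and secretes nutrients and carrier proteins, and definitive endoderm, which arises from the epiblast through the primitive streak, enters the same layer and forms the gut. Hnf4a is a nuclear receptor that drives the liver-like secretory genes of the visceral endoderm. Foxa1 and Foxa3 belong to the FoxA family of forkhead factors, which can bind closed chromatin and open it for other factors, and Foxa2 is the member of the family needed for the node and foregut. Sox7, Sox17 and Sox18 form the SoxF group of HMG-box factors, used both in primitive and definitive endoderm and in endothelium. Nr5a2, also called liver receptor homolog, is an orphan nuclear receptor known from pluripotent cells, early endoderm and adult liver.

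The label endoderm held for 4 of the 6 factors. *Hnf4a*, *Sox17*, *Foxa1* and *Foxa3* were each highest in endoderm, where 90.8% to 99.9% of their RPKM summed over the 3 libraries was found. *Sox7* stood at the same low level in endoderm and mesoderm, and *Nr5a2* was nearly silent in all 3 libraries and lowest in endoderm. RPKM is the number of reads of a gene per kilobase of its length and per M (mega) reads counted in the library, so that it can be set side by side between genes and libraries.

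In the GENCODE M21 annotation of GRCm38, *Hnf4a* lies on the forward strand at chr2:163506808-163572910 and has 5 annotated transcripts. Its span also holds *Hnf4aos* and *Gm25881*, whose exons do not overlap its own. *Foxa1* (chr12:57540628-57546916) and *Foxa3* (chr7:19013284-19023538) lie on the reverse strand, and *Sox7* on the forward strand at chr14:63943673-63950732. *Sox17* lies on the reverse strand at chr1:4490931-4497354, has 8 annotated transcripts, and shares exon bases with *Gm37587*. Whether strand was used in the authors' counting is not given in the sources used here, so reads of that overlap cannot be assigned. *Nr5a2* lies on the reverse strand at chr1:136842571-136960448 and has 6 transcripts.

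Sequence upstream of the RefSeq starts was read from RefSeq promoters of GRCm38.p6, which held 4 of the 6 factors. These starts can differ from the GENCODE ends given above, and the *Foxa1* window lies within the GENCODE span of the gene, while the first *Hnf4a* window runs past its GENCODE start. The 250 bases before each start are shown for *Hnf4a*, *Foxa1* and *Foxa3*, which shared high levels in endoderm, and for the first start of *Nr5a2*, which did not. They are written 5′ to 3′ on the strand of the gene, ending at the base before the start. Capitals mark every match, on either strand, to 5 core motifs.
Hnf4a, first start, chr2:163506607-163506856, forward strand: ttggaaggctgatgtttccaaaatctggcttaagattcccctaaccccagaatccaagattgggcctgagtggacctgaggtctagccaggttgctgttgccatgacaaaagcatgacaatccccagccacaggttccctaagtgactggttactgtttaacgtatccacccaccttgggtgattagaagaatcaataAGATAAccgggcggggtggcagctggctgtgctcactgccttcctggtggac
Hnf4a, second start, chr2:163546905-163547154, forward strand: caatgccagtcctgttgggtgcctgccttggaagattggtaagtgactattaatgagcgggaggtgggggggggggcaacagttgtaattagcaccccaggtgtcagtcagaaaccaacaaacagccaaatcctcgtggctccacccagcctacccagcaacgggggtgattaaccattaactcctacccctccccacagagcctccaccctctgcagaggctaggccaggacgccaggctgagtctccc
Foxa1, chr12:57546112-57546361, reverse strand: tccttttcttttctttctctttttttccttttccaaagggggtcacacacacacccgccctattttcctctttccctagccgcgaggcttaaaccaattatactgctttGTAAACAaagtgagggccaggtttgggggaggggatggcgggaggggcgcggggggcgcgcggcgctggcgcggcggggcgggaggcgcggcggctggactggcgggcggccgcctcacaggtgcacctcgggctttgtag
Foxa3, chr7:19023540-19023789, reverse strand: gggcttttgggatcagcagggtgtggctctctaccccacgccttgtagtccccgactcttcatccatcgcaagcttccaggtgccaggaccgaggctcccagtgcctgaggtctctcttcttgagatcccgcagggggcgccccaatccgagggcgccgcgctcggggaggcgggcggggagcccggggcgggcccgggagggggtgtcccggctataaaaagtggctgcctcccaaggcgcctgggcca
Nr5a2, first start, chr1:136960449-136960698, reverse strand: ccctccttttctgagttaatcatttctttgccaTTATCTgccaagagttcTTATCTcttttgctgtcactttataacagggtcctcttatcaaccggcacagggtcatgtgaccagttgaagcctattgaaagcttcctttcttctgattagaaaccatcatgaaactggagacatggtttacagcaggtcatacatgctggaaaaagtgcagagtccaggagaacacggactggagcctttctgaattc

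The motifs searched were TGTTTAC for forkhead factors, CAAAGTCCA for Hnf4, CAAGGTCA for Nr5a, ATTGTT for Sox and AGATAA for GATA, none of which overlapped another in these windows. The first *Hnf4a* window held 1 GATA core, beginning 52 bases before the start. The *Foxa1* window held 1 forkhead core at 141 bases before the start. The second *Hnf4a* window and the *Foxa3* window held none of the 5. The first *Nr5a2* window held 2 GATA cores, and the window of its second start held none. Among all 32851 RefSeq promoter windows of this length, 9.99% held the GATA core, 3.17% the forkhead core, 9.42% the Sox core, 1.33% the Nr5a core and 0.384% the Hnf4 core. A match describes letters in a window and not a bound site.

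The libraries were similar in depth, with 41.7 M reads counted on genes for endoderm, 40.8 M for mesoderm and 42.7 M for epiblast. Reads were found on 16385, 16201 and 16430 genes, with a median RPKM of 4.89, 4.52 and 4.22. An even number of reads was found for 68.9% (endoderm), 68.8% (mesoderm) and 66.4% (epiblast) of the genes with at most 20 reads, a pattern that counting both mates of a pair gives. Intervals are therefore too narrow where mates were both counted, and the wider interval that counts each pair of reads as 1 fragment is given where it changes which values differ. Genes were called as differentially expressed in a pair of libraries at RPKM>5 in at least 1 of them, Fold Change>2 and a false discovery rate (FDR) below 0.001, computed over all genes from Audic and Claverie's exact test, two-sided.

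All 9 visceral endoderm markers were called higher in endoderm than in both other layers, and all 8 mesoderm markers were called higher in mesoderm than in endoderm. Of the 8 epiblast markers, all 8 were called higher in epiblast than in mesoderm and 7 higher than in endoderm, the exception being *Fgf5*, at nearly the same level in both. Of the 9 definitive endoderm markers, 3 were called higher in endoderm than in mesoderm, and 1, *Cxcr4*, was called higher in mesoderm. Against epiblast 5 were called higher in endoderm and none the other way. Of all genes 2.45% to 8.02% were called in each direction of a pair.

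**Figure D1:**
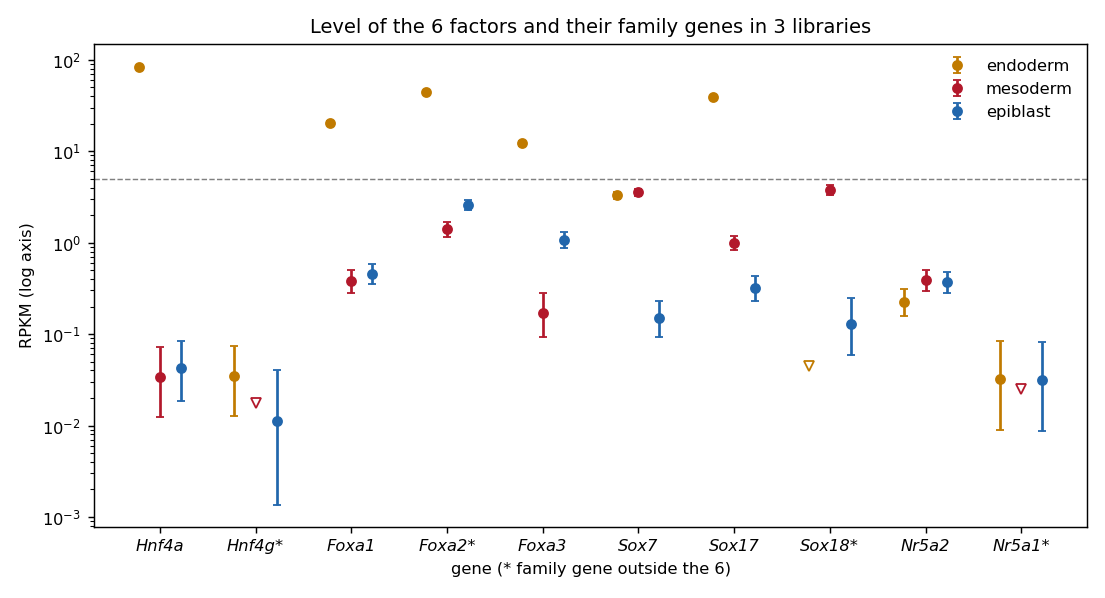
RPKM (log axis) of the 6 factors and of their family members *Foxa2*, *Sox18*, *Hnf4g* and *Nr5a1* (marked with a star) in the 3 libraries, with exact Poisson 95% intervals of the reads as bars. Open triangles stand at the 3-read limit of a gene with 0 reads, and the dashed line is RPKM 5. *Hnf4a*, *Sox17*, *Foxa1* and *Foxa3* lie above that line in endoderm only, while *Sox7* and *Nr5a2* lie below it in all 3 libraries.

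*Hnf4a* was the most abundant of the 6 factors in endoderm and the least abundant in the other layers. Endoderm held 15342 of its reads, mesoderm 6 and epiblast 8, which gave RPKM values of 84.3 (95% interval 82.9 to 85.6), 0.0336 (0.0123 to 0.0731) and 0.0429 (0.0185 to 0.0844). Endoderm thus stood far above both other libraries, which did not differ from each other within counting error. The Fold Change of endoderm over mesoderm was 2508 (1152 to 6834) and over epiblast 1966 (998 to 4555). The mesoderm library held 0.0399% and the epiblast library 0.0509% of the endoderm RPKM. In endoderm *Hnf4a* ranked above 94.5% of the genes with reads. Its relative *Hnf4g*, another HNF4 receptor of gut epithelium, had only 6, 0 and 2 reads in endoderm, mesoderm and epiblast.

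Among the 6 factors, 4 were called higher in endoderm than in mesoderm, against a background of 7.44% of the 17194 genes tested. The same 4, *Hnf4a*, *Foxa1*, *Foxa3* and *Sox17*, were called higher in endoderm than in epiblast, where the background was 8.02% of 17267 genes. These comparisons share the endoderm library. None of the 6 could be called higher in mesoderm or in epiblast than in endoderm. Such a call needs RPKM>5 in mesoderm or epiblast. The highest factors there were *Sox7* in mesoderm (3.57) and *Foxa3* in epiblast (1.08). Of all genes 4.41% and 4.58% were called in these directions. For the same reason none could be called between mesoderm and epiblast, where *Foxa3*, *Sox7* and *Sox17* were called at RPKM>1. The backgrounds of that pair were 2.58% higher in mesoderm and 2.45% higher in epiblast among 17100 genes. The factors had been chosen as endoderm regulators with earlier results of these data known, so these counts are a description.

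**Figure D2:**
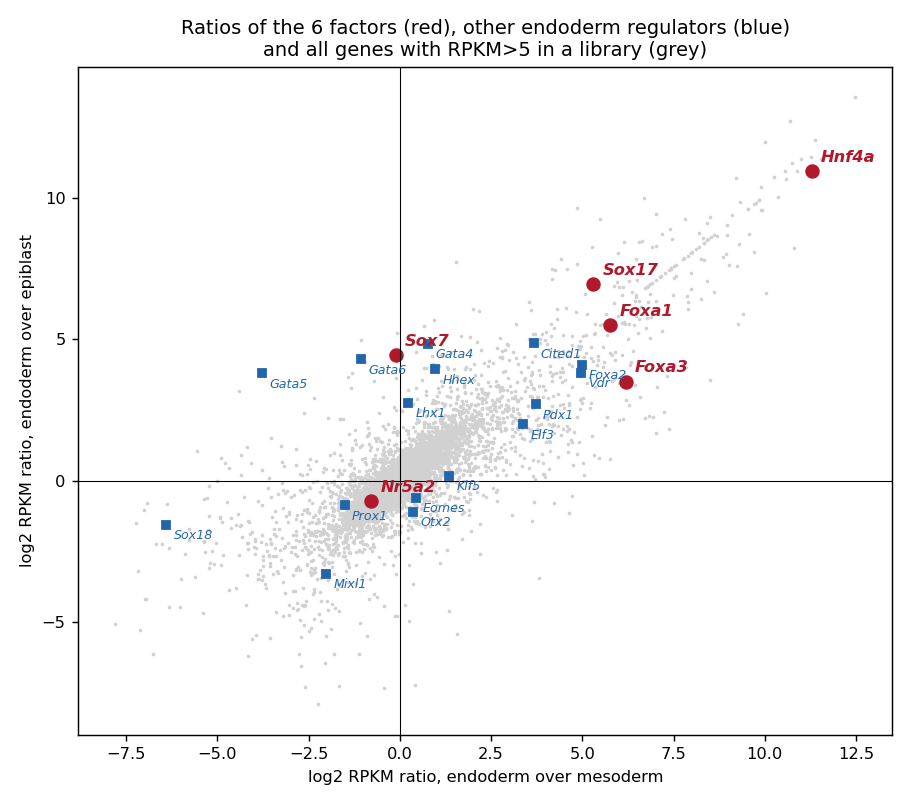
Log2 ratio of endoderm to mesoderm (horizontal) and of endoderm to epiblast (vertical) for the 6 factors (red), *Foxa2*, *Sox18* and the other endoderm regulators with RPKM>1 in any library (blue squares) and all genes with RPKM>5 in any library (grey), with reads below 3 set to 3, so that *Sox18* (0 endoderm reads) stands at a bound. The axes share the endoderm library. *Hnf4a* lies at 11.29 and 10.94, *Sox7* at -0.12 and 4.45, and *Nr5a2* at -0.78 and -0.72.

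*Foxa1* and *Foxa3* were both far higher in endoderm, and differed in the gap between epiblast and mesoderm. *Foxa1* had 2727, 49 and 62 reads in endoderm, mesoderm and epiblast, with RPKM values of 20.5 (19.8 to 21.3), 0.376 (0.278 to 0.497) and 0.455 (0.349 to 0.584). Its Fold Change in endoderm was 54.6 (41.2 to 74.0) over mesoderm and 45.1 (35.1 to 59.0) over epiblast. Mesoderm and epiblast overlapped within counting error, with an epiblast to mesoderm ratio of 1.21 (0.819 to 1.80).

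*Foxa3*, known for its role in liver and testis, had 1040 endoderm reads, 14 mesoderm reads and 94 epiblast reads. Its RPKM was 12.2 (11.5 to 13.0), 0.168 (0.0919 to 0.282) and 1.08 (0.872 to 1.32) in that order. The endoderm level was 72.9-fold (43.2 to 133.7) above mesoderm and 11.3-fold (9.18 to 14.2) above epiblast. The call against epiblast was lost when edgeR's exact test assumed a biological coefficient of variation of 0.4. *Foxa3* thus kept 8.82% of its endoderm RPKM in the epiblast library, and *Foxa1* 2.22%. The 6.42-fold (3.64 to 12.2) higher *Foxa3* level in epiblast than in mesoderm excluded 1, also with mates counted together (2.88 to 16.8), but was not called because neither library reached RPKM 5.

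*Foxa2*, the remaining FoxA gene, was the highest of the family in every library, with 3895, 121 and 234 reads and RPKM values of 44.0, 1.39 and 2.58 in endoderm, mesoderm and epiblast. It was called higher in endoderm by 31.6-fold over mesoderm and 17.1-fold over epiblast. In endoderm *Foxa2* stood 2.14-fold above *Foxa1*, and *Foxa1* 1.68-fold (1.56 to 1.80) above *Foxa3*. Mesoderm kept this order, although its 2.24-fold step from *Foxa1* to *Foxa3* (1.22 to 4.39) spanned 1 when mates were counted together (0.939 to 6.14). In epiblast the order of the lower pair was inverted, and *Foxa3* stood 2.37-fold (1.70 to 3.32) above *Foxa1*. *Foxa3* accordingly made up 16.0% of the FoxA RPKM of endoderm, 8.68% of that of mesoderm and 26.3% of that of epiblast, and *Foxa1* 26.8%, 19.4% and 11.1%.

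The SoxF genes *Sox17* and *Sox7* were distributed differently over the layers. *Sox17*, which is needed for definitive gut endoderm, had 5147 endoderm reads, 128 mesoderm reads and 43 epiblast reads, with RPKM values of 39.5 (38.4 to 40.6), 1.0 (0.835 to 1.19) and 0.322 (0.233 to 0.433). All 3 intervals were separate. Endoderm was 39.4-fold (33.1 to 47.4) above mesoderm and 122.7-fold (91.0 to 169.8) above epiblast. Mesoderm was 3.11-fold (2.19 to 4.50) above epiblast, which was not called because both libraries were below RPKM 5. Of the 4 factors called in endoderm, *Sox17* and *Hnf4a* had the smallest percentages of their endoderm RPKM in epiblast, 0.815% and 0.0509%.

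*Sox7*, a factor of primitive and parietal endoderm and of early endothelium, had 448 endoderm reads, 476 mesoderm reads and 21 epiblast reads. Its RPKM values were 3.29 (3.0 to 3.61), 3.57 (3.25 to 3.9) and 0.151 (0.0932 to 0.230). Endoderm and mesoderm overlapped, with a mesoderm to endoderm ratio of 1.08 (0.95 to 1.24), and both stood clear of epiblast. The Fold Change over epiblast was 21.9 (14.1 to 35.7) in endoderm and 23.7 (15.3 to 38.6) in mesoderm. Neither was called, since *Sox7* stayed below RPKM 5 in every library. At RPKM>1 both were called.

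*Sox18*, the SoxF factor of endothelium and lymphatic vessels, had 0 endoderm reads, 248 mesoderm reads and 9 epiblast reads. Its mesoderm RPKM of 3.75 was at least 84.3-fold higher than endoderm, where 0 reads allow up to 3, and 28.8-fold (14.9 to 63.7) above epiblast. In mesoderm *Sox18* and *Sox7* did not differ within counting error, with a ratio of 1.05 (0.898 to 1.23), and *Sox7* stood 3.56-fold (2.93 to 4.37) above *Sox17*. In endoderm *Sox17* stood 12.0-fold (10.9 to 13.2) above *Sox7*. *Sox17* thus made up 92.3% of the summed SoxF RPKM in endoderm and 12.0% in mesoderm, where *Sox18* made up 45.1% and *Sox7* 42.9%. The epiblast held 0.602 RPKM of the 3 genes together, against 42.8 in endoderm and 8.32 in mesoderm.

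*Nr5a2* was the factor whose values went against the endoderm label. Its reads numbered 35 in the endoderm library and 59 in each of the others, and its RPKM of 0.226 (0.157 to 0.314), 0.388 (0.296 to 0.501) and 0.371 (0.283 to 0.479) stayed below 1 in all libraries. The endoderm value was the lowest, with mesoderm 1.72-fold (1.11 to 2.69) and epiblast 1.64-fold (1.06 to 2.57) above it. Counting mates together widened these intervals to 0.921 to 3.30 and 0.881 to 3.16, both of which span 1. The FDR of 0.0191 and 0.0328 by the exact test of Audic and Claverie missed the criterion. Mesoderm and epiblast did not differ within counting error, with a ratio of 1.05 (0.716 to 1.53). The upstream window of *Nr5a2* shown above, with its GATA cores, thus belongs to a gene at the 19.3rd percentile of genes with reads in endoderm. *Nr5a1*, the steroidogenic factor of adrenal and gonad, had 4, 0 and 4 reads.

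The order of the 6 factors changed from layer to layer. In endoderm it ran *Hnf4a*, *Sox17*, *Foxa1*, *Foxa3*, *Sox7* and *Nr5a2*, and each stood above the next by more than counting error, with RPKM ratios between neighbours from 1.68 for *Foxa1* over *Foxa3* to 14.6 for *Sox7* over *Nr5a2*. In mesoderm it ran *Sox7*, *Sox17*, *Nr5a2*, *Foxa1*, *Foxa3* and *Hnf4a*, where *Nr5a2* and *Foxa1* did not differ within counting error (ratio 1.03, 0.694 to 1.54). In epiblast it ran *Foxa3*, *Foxa1*, *Nr5a2*, *Sox17*, *Sox7* and *Hnf4a*, and neither *Foxa1* and *Nr5a2* nor *Nr5a2* and *Sox17* differed within counting error. The step from *Sox17* to *Sox7* in epiblast, 2.14-fold (1.24 to 3.79), spanned 1 when mates were counted together (0.978 to 4.98). The summed RPKM of the 6 factors was 160.0 for endoderm, 5.54 for mesoderm and 2.42 for epiblast.

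The covered share of each gene shows how widely the low counts were spread. The reads of *Hnf4a* covered 98.6% of its length in endoderm but 12.4% in mesoderm and 13.9% in epiblast, the 6 mesoderm reads covering 540 bases. *Foxa3* was covered to 99.7%, 52.2% and 97.0% in endoderm, mesoderm and epiblast, so that its 94 epiblast reads lay over nearly the whole gene. *Sox7* was covered to 98.0%, 94.6% and 32.6% in that order. *Nr5a2* was covered to between 57.6% and 62.1% in the 3 libraries, and *Sox17* to 93.5%, 62.6% and 42.6%. *Foxa1* was covered to 93.3%, 66.4% and 71.6%.

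**Figure D3:**
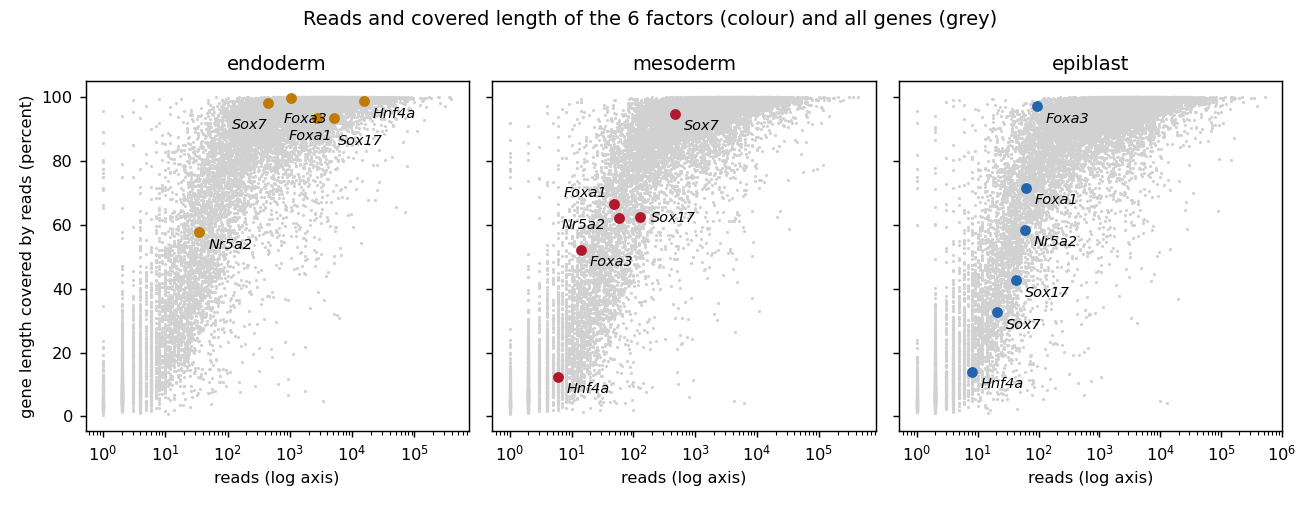
Reads of each gene (log axis) against the percent of its length covered by reads, in endoderm, mesoderm and epiblast, for the 6 factors (colour) and all genes with reads (grey). The 94 reads of *Foxa3* in epiblast cover 97.0% of its length, and the 128 reads of *Sox17* in mesoderm cover 62.6%.

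Other regulators of endoderm were taken from a list of 21 genes, of which *Nr0b2* had no reads. Against mesoderm, 3 were called higher in endoderm (*Klf5*, *Elf3* and *Cited1*), 3 were called higher in mesoderm (*Gata6*, *Gata5* and *Mixl1*) and 14 were not called. In edgeR's exact test all of these calls were lost at a coefficient of variation of 0.4. *Klf5* and *Gata6* were already lost at 0.2. The median log2 ratio of the list was 0.60, beside -0.11 over all genes with more than 3 reads in either library. Against epiblast, 6 were called higher in endoderm (*Gata4*, *Gata6*, *Hhex*, *Lhx1*, *Elf3* and *Cited1*), 2 were called higher in epiblast (*Mixl1* and *Otx2*) and 12 were not called, with a median of 2.13 beside -0.11. At a coefficient of variation of 0.4 *Lhx1*, *Elf3*, *Mixl1* and *Otx2* were no longer called. *Otx2* was already lost at 0.2. Between mesoderm and epiblast 6 were called higher in mesoderm and 5 in epiblast. At a coefficient of variation of 0.2 the 5 calls in epiblast and that of *Cited1* were lost. At 0.4 only those of *Gata6* and *Gata5* were kept. The 20 detected regulators were highest in endoderm in 11 cases, in epiblast in 5 and in mesoderm in 4.

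**Figure D4:**
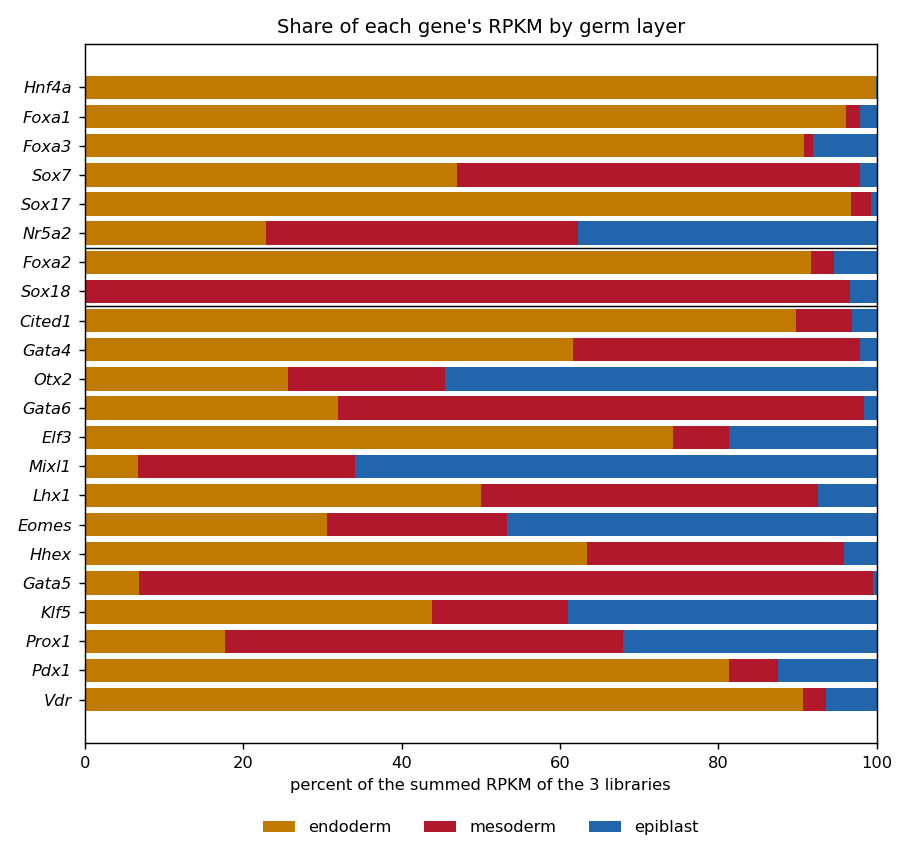
Share of the RPKM summed over the 3 libraries that each library took (percent, stacked bars), for the 6 factors, then *Foxa2* and *Sox18*, then the other endoderm regulators with RPKM>1 in any library. Endoderm takes 99.9% for *Hnf4a*, 96.8% for *Sox17*, 96.1% for *Foxa1*, 90.8% for *Foxa3*, 47.0% for *Sox7* and 22.9% for *Nr5a2*.

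The GATA factors, zinc finger regulators of endoderm and heart, were each lowest in epiblast and divided differently between endoderm and mesoderm. The RPKM of *Gata4* was 61.4 for endoderm, 36.0 for mesoderm and 2.15 for epiblast, and its 1.70-fold difference between endoderm and mesoderm was not called. *Gata6* had 15.0, 31.2 and 0.770, and *Gata5* 0.785, 10.7 and 0.0567. The 2.08-fold higher *Gata6* level in mesoderm than in endoderm was no longer called when libraries were scaled by the median of ratios or by TMM, while the 13.6-fold difference of *Gata5* was still called there. In edgeR's exact test *Gata6* was not called at a coefficient of variation of 0.2 or 0.4, and *Gata5* was not called at 0.4.

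Among the other homeodomain and T-box regulators, *Hhex*, an anterior endoderm and blood progenitor factor, had RPKM values of 11.2, 5.74 and 0.727 (endoderm, mesoderm, epiblast). Its 1.95-fold difference between endoderm and mesoderm was called only under the median of ratios and TMM scalings (2.11). *Lhx1* had 15.3, 13.0 and 2.28, and *Otx2*, a factor of anterior visceral endoderm and anterior epiblast, had 27.4, 21.2 and 58.3. The 2.13-fold higher *Otx2* level in epiblast than in endoderm was lost under 3 of 4 other scalings. The primitive streak factors *Eomes* (9.51, 7.01 and 14.5) and *Mixl1* (1.92, 7.77 and 18.7) were highest in epiblast. *Pdx1*, the pancreas factor, was low at 2.01, 0.152 and 0.309 and was not called.

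*Elf3*, an epithelial ETS factor, had 25.6, 2.45 and 6.44 RPKM in endoderm, mesoderm and epiblast. *Cited1*, a transcriptional co-activator, had 281.5, 22.2 and 9.79 RPKM, the highest endoderm level among the listed regulators. *Klf5* had 5.82, 2.27 and 5.18. The levels of *Gsc*, *Onecut1*, *Cebpa*, *Nr1h4*, *Nr1i2* and *Ppargc1a* were below 1 RPKM in all 3 libraries, *Vdr* exceeded it only in endoderm (1.05), and *Prox1* was highest in mesoderm (3.13).

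Genes known to depend on Hnf4a in visceral endoderm followed the layer distribution of *Hnf4a*. Of 13 listed genes, 12 had reads and all 12 were highest in endoderm, and *Alb* had none. In each comparison with endoderm 10 were called higher in endoderm and none was called the other way. Of all genes 7.44% were called higher in endoderm than in mesoderm and 8.02% than in epiblast. The median log2 ratios of the list (reads below 3 set to 3) were 10.63 over mesoderm and 10.79 over epiblast. Both medians were -0.11 over all genes with more than 3 reads in either library. The highest genes of the list were *Apoa1* (2376.4 RPKM in endoderm), *Apoc2* (1683.8) and *Ttr* (1012.5), which encode carriers of lipids and thyroid hormone. *Apoa1* had 1.17 and 0.912 RPKM in mesoderm and epiblast.

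Genes of basement membrane and parietal endoderm known to respond to Sox7 and Sox17 were spread over both layers. Of the 12, 3 were called higher in endoderm than in mesoderm (*Dab2*, *Col4a1* and *Col4a2*), 1 was called higher in mesoderm (*Fgf3*) and 8 were not called, with a median log2 ratio of 0.72. Against epiblast 8 were called higher in endoderm and 7 were called higher in mesoderm, none the other way, with medians of 2.11 and 1.62. *Fgf3* was 10.5-fold (6.89 to 16.7) higher in epiblast than in endoderm, but its epiblast RPKM of 4.99 missed the cut of 5. Of all genes 8.02% were called higher in endoderm and 2.58% higher in mesoderm than in epiblast. Against mesoderm 7.44% were called higher in endoderm and 4.41% the other way. The all-gene median was -0.11 for both ratios of endoderm. *Dab2*, an endocytic adaptor, had RPKM values of 683.5, 20.2 and 6.99 (endoderm, mesoderm, epiblast). *Sparc*, a matrix glycoprotein, had 165.4, 95.8 and 49.6, and *Col4a1*, a basement membrane collagen, 160.4, 54.4 and 20.6.

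Known targets of Nr5a2 did not share a single layer. Of the 10 listed, 7 had reads, and *Nr0b2*, *Cyp8b1* and *Cyp7a1* had none. Against epiblast 1 gene, *Scarb1*, was called higher in endoderm and 4 were called higher in epiblast. Against mesoderm the same gene was called higher in endoderm and 2, *Pou5f1* and *Ccnd1*, were called higher in mesoderm. Of all genes 8.02% were called higher in endoderm than in epiblast and 4.58% the other way. Against mesoderm these shares were 7.44% and 4.41%. *Pou5f1*, the pluripotency factor, stood at 36.4 RPKM for endoderm, 119.6 for mesoderm and 517.2 for epiblast. *Ccne1* and *Ccnd1*, cyclins of the G1 phase, had 48.5, 74.7 and 103.2, and 25.5, 98.3 and 74.6. *Scarb1*, a lipoprotein receptor, had 78.9, 10.7 and 13.6, and was named because it was the only gene of the list called higher in endoderm.

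The low levels outside endoderm were set beside those of visceral endoderm markers. In mesoderm the 9 markers had 0.0375% to 6.12% of their endoderm RPKM, with a median of 0.292%, and in epiblast 0.0150% to 22.2%, with a median of 0.184%. All 9 markers had more than 3 reads in each library, and their RPKM summed to 3375.4 for endoderm, 9.47 for mesoderm and 13.8 for epiblast. *Hnf4a* was within the range in both layers, at 0.0399% and 0.0509%. *Foxa1* (1.83% and 2.22%), *Foxa3* (1.37% and 8.82%) and *Sox17* (2.54% and 0.815%) also lay within it, above the median in both layers. The upper end of the range was set by *Lrp2* alone. Among the other 8 markers the highest were *Rhox5* in mesoderm (1.10%) and *Ihh* in epiblast (0.901%), so that without *Lrp2* all 3 of these factors lay above the markers in mesoderm, and *Foxa1* and *Foxa3* in epiblast. The part that carried-over endoderm RNA had in these values was not tested.

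*Sox7* in endoderm was set beside markers of endothelial and blood progenitors, which share its expression in mesoderm. Of the 11 markers, 5 were called higher in mesoderm than in endoderm and none the other way, with a median log2 ratio of endoderm to mesoderm of -6.15. Of all genes 4.41% were called higher in mesoderm than in endoderm, and the all-gene median was -0.11. The RPKM of the markers summed to 134.4 for mesoderm, 7.70 for endoderm and 9.98 for epiblast. The defining genes *Kdr*, *Tal1* and *Etv2* had 0.272, 0.104 and 0.457 RPKM in endoderm against 40.8, 13.3 and 47.2 in mesoderm, and *Sox18* had 0 reads in endoderm. *Gata1*, the erythroid factor, was the exception, with 3.27 RPKM in endoderm and 2.49 in mesoderm. *Sox7* had 92.3% of its mesoderm RPKM in endoderm, whereas each of the markers other than *Gata1* was lower in endoderm than in mesoderm by at least 3.20-fold (*Flt1*).

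**Figure D5:**
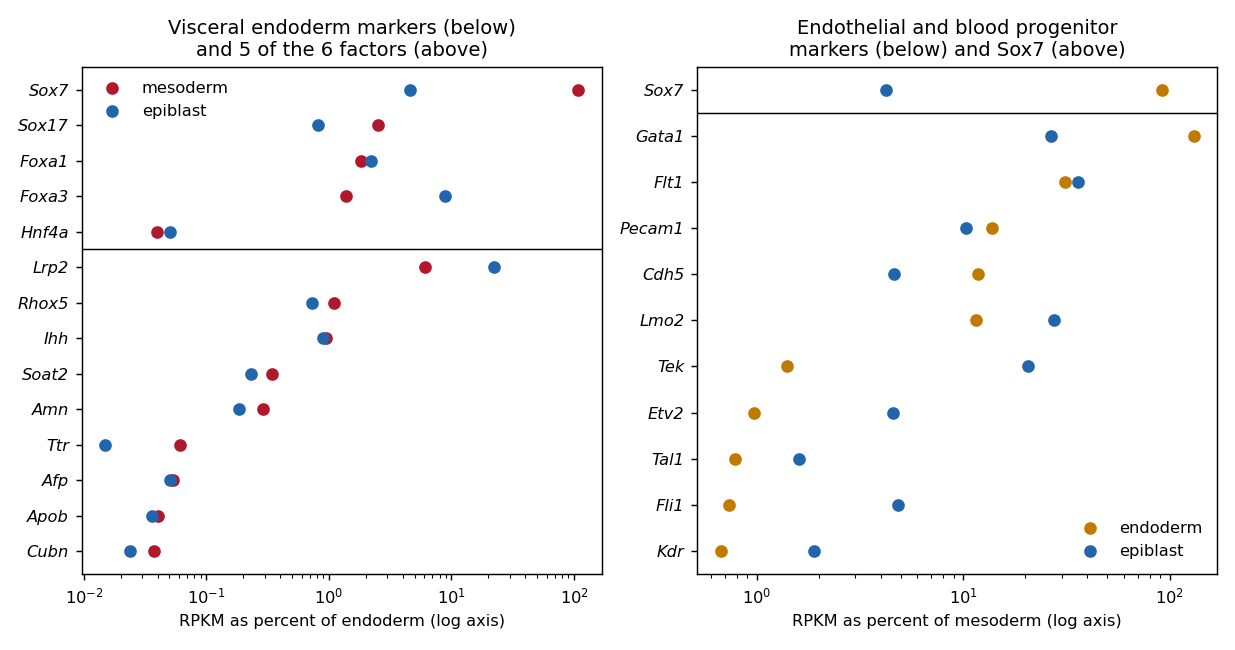
Left, RPKM in mesoderm and epiblast as percent of endoderm (log axis) for the 9 visceral endoderm markers and 5 of the factors. Right, RPKM in endoderm and epiblast as percent of mesoderm for 10 endothelial and blood progenitor markers and *Sox7*, without *Sox18*, which had 0 endoderm reads. *Hnf4a* lies at 0.0399% and 0.0509% on the left, and *Sox7* at 92.3% (endoderm) on the right.

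For each factor the genes with the most similar pair of log2 ratios were sought among 9134 other genes with RPKM>5 in at least 1 library. The Euclidean distance was taken over the ratios of endoderm to mesoderm and of endoderm to epiblast. Both share the endoderm library, and the level of a gene plays no part in the distance. For *Hnf4a* they were *Afp* (distance 0.42), *Apoa4* (0.48) and *Apob* (0.49), all secreted visceral endoderm products. For *Sox17* they were *Lcp1* (0.11), *Fgfr4* (0.17) and *Dab2* (0.40), and for *Foxa1* *Tmem37* (0.21), *Tfeb* (0.28) and *Sepp1* (0.33). For *Foxa3* they were *0610010O12Rik* (0.19), *Gltpd2* (0.28) and *Trh* (0.33). All of these were higher in endoderm than in both other layers. Counting error was not carried into the distances. For *Hnf4a*, with 6 mesoderm and 8 epiblast reads, the Fold Change intervals were 1152 to 6834 and 998 to 4555. On the log2 scale these intervals are wider than the distances, so the order of its nearest genes is not fixed.

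The remaining factors differed in how many genes lay close. For *Sox7*, with 9135 genes compared, they were *Ptgds* (0.24), *Igf2* (0.56) and *Prdm6* (0.76), each at a like level in endoderm and mesoderm and low in epiblast. For *Nr5a2* the nearest genes were *Gpatch4* (0.0095), *Gatc* (0.013) and *Cdc25c* (0.014). The intervals of its Fold Change, 1.11 to 2.69 and 1.06 to 2.57, are far wider than these distances, so which genes come nearest is not fixed. Within a distance of 1, 7 genes lay near *Hnf4a*, 9 near *Sox7*, 12 near *Sox17*, 16 near *Foxa3*, 27 near *Foxa1* and 4120 near *Nr5a2*, whose small ratios were those of many genes.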

How the data were processed

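RNA-seq of endoderm, mesoderm and epiblast, 1 library each, was analysed from gene tables. The authors removed adapters and low-quality paired-end reads and deposited the count of uniquely mapped reads per gene, not normalized. Each deposited table also gives the RPKM, the gene length and the percent of that length covered by reads. RPKM equalled reads divided by length and by the total of counted reads (largest relative difference 2.03e-07) and was used as deposited. The aligner, annotation, counting program and use of strand for these tables are not given in the sources used here. The submitters' processing notes name TopHat, mm10 and mm9, and the study's methods give TopHat and mm10 for the splicing analysis, not used here.

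Genes absent from a table were given 0 reads, which allows up to 3, and folds against 3 reads or fewer were computed against 3. Calls needed RPKM>5 in 1 of the pair, an FDR below 0.001 and Fold Change>2 (exact test of Audic and Claverie, Benjamini-Hochberg adjustment over genes with a read in either library), following the study's criteria. As 1 library per layer gives no estimate of dispersion, edgeR's quasi-likelihood fit was not possible, and its exact test, at coefficients of variation set to 0.2 and 0.4, was an alternative. Intervals are exact Poisson for reads and Clopper-Pearson conditional binomial for ratios, at 95%. Other scalings, thresholds, a pseudocount and fragments in place of reads were also tried. The fragment alternative was chosen after seeing the data. The scripts were tested on simulated data. Some genes of the lists are not reported here.

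The factors and lists were chosen with earlier results of these data known. Named genes were the 6 factors, their family members, the 3 highest genes of each of the regulator and target lists and every other endoderm regulator, the protein-coding neighbours and the 3 nearest patterns, and other genes are named, after their values were seen, where a count or comparison turns on them. RefSeq promoters (GRCm38.p6) matched 4 of the 6 factors. The tools were R 4.3.3 with edgeR 4.0.16, and Python 3.11.15 with SciPy 1.17.1, numpy 2.4.6, pandas 2.3.3 and matplotlib 3.10.9.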

Additional observations from a re-analysis of the deposited data

How the results depend on the processing

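No paired analysis was possible because each germ layer has 1 library, and for the same reason no replicate could be left out. The 4 factors called higher in endoderm than in mesoderm were called under every alternative. Against epiblast the same 4 were called, with *Sox7* as a 5th at RPKM>1 or without the RPKM criterion, and without *Foxa3* (3 left) at a coefficient of variation of 0.4. Between mesoderm and epiblast 3 factors (*Foxa3*, *Sox7* and *Sox17*) were called instead of 0 at RPKM>1 and without the RPKM criterion. Over all genes, 2038 were called for endoderm against mesoderm, 2176 for endoderm against epiblast and 861 for the other pair. In this order the counts were 3375, 3561 and 1841 at RPKM>1, 4676, 4854 and 2769 without the RPKM criterion, 936, 898 and 334 at Fold Change>4, 1199, 1235 and 443 in edgeR's exact test at a coefficient of variation of 0.2, and 387, 331 and 60 at 0.4. At RPKM>10 the last count was 525. Fewer genes can pass a stricter criterion by construction. The 18 ratios between libraries of the 6 factors moved by -7.79% to 8.20% under 4 other scalings, and all 72 values stayed within their counting intervals. Scaling by the median of ratios or TMM moved the median log2 ratio of all genes by 0.11 in both comparisons with endoderm, and the upper quartile moved that of endoderm to epiblast by -0.12. Adding 1 to RPKM took 12 of the 18 ratios out of their counting intervals, as it shrinks ratios of low values. The depth limits the statements on *Nr5a2* in all libraries and on *Hnf4a* outside endoderm.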

Other observations

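The protein-coding genes that flank the 6 factors in GENCODE M21 were also measured. Of the 11 with reads, 7 had RPKM>5 in a library and could be called, and none was called in any pair, where 2.45% to 8.02% of all genes were called in each direction. Those shares are over all genes with a read in the pair, including genes that could not be called. *4930578I06Rik*, beside *Sox7*, had no reads. *Sympk*, 839 bases from *Foxa3*, had RPKM values of 69.8, 79.6 and 84.5 (endoderm, mesoderm, epiblast), and *Irf2bp1*, on its other side, 19.5, 24.3 and 19.6. *R3hdml*, beside *Hnf4a*, had 14, 54 and 8 reads in endoderm, mesoderm and epiblast, and *Ttpal*, on its other side, had 6.39, 5.21 and 5.11 RPKM. *Ttc6*, beside *Foxa1*, was low but had 34 reads in endoderm against 3 in mesoderm and 2 in epiblast, and *Mipol1* had 5.51, 3.62 and 3.41 RPKM. *Mrpl15* and *Rp1*, which flank *Sox17*, had 19.8, 16.1 and 16.3 RPKM and 10, 2 and 2 reads. *Pinx1*, the other neighbour of *Sox7*, had 19.8, 37.0 and 34.5 RPKM. The neighbours of *Nr5a2* were *Zfp281*, with 11.7, 18 and 18.4 RPKM, and *Ptprc*, with 2 reads in epiblast and none in the other libraries.

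Markers of tissues that lie next to the dissected embryonic region were also measured. Of 9 trophoblast and extra-embryonic ectoderm markers, *Tpbpa*, *Prl3d1* and *Prl2c2* had no reads. *Esx1* and *Plac1* were called higher in endoderm than in mesoderm, and *Hand1*, which is also a mesoderm marker, was called higher in mesoderm. Against epiblast *Esx1* and *Plac1* were again called higher in endoderm, while *Cdx2* (2.02-fold) and *Hand1* (33.2-fold) were called higher in epiblast. *Plac1* and *Hand1* were called higher in mesoderm than in epiblast. *Elf5*, *Ascl2* and *Cdx2* had their highest RPKM in epiblast, and *Elf5* and *Ascl2* were not called in any pair. Of 8 maternal decidua markers, *Prl8a2* and *Prl3c1* had no reads and none was called between endoderm and mesoderm. *Bmp2* was called higher in endoderm and in mesoderm than in epiblast. These genes were named after their values were seen, and their part in the levels of the 6 factors was not tested.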
